A study of Mus musculus with 8 samples.

Results

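The Wnt ligand genes described here are Wnt2, Wnt2b, Wnt4, Wnt5a, Wnt5b, Wnt6, Wnt9a, Wnt10a, Wnt10b and Wnt11. They were taken by gene symbol and make up 10 of the 19 Wnt ligand genes and of the 31252 genes in the deposited count tables. Messenger RNA was profiled in 3T3-L1 cells, a mouse preadipocyte line that becomes adipocyte-like when given hormones. Cells expressing an shRNA against Maf1 (shMaf1), cells expressing an shRNA against Brf1 (shBrf1) and cells given ML-60218, a small-molecule inhibitor of RNA polymerase III, were set against control cells that carried an empty shRNA vector. The product of Maf1 holds RNA polymerase III back, whereas that of Brf1 belongs to TFIIIB, which recruits this polymerase. Each of the 4 conditions was sampled at day 2, after exposure to insulin (10 µg/mL), dexamethasone (2 µM), IBMX (0.5 mM) and ascorbic acid (25 µg/mL), and at day 0, in confluent cells before that exposure. The labels do not say if the empty vector was present in cells given ML-60218, what its dose, vehicle and starting time were, or whether a knockdown line was a clone or a pool.

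Wnt ligands are secreted, lipid-modified glycoproteins that bind Frizzled receptors on nearby cells. With the coreceptors Lrp5 and Lrp6 they stabilise β-catenin, which then acts with TCF and LEF factors on target genes, while other ligands signal through Ror and Ryk receptors without β-catenin. In preadipocytes, signalling through β-catenin is known to hold back Pparg and Cebpa, the master regulators of adipogenesis, and Wnt10b, Wnt10a and Wnt6 are the ligands best known for this. Wnt5a and Wnt11 are mostly studied for signalling that does not use β-catenin.

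Each of the 8 groups held 1 library, so no comparison has a replicate check and none was tested. The 3 comparisons with control at a given day share 1 control library. Total counts per library lay between 29035505 and 31759559. The shBrf1 library of day 2 stood apart in quality, with 7.8% of reads on ribosomal RNA against 0.46% to 0.93% in the other 7, and with the highest score for 3′ bias of coverage, 0.36 against 0.06 to 0.22. Maf1 mRNA was at 11.96 and 13.1 CPM in shMaf1 cells at day 2 and day 0, against 59.8 and 55.8 CPM in control cells. Brf1 mRNA was at 13.4 and 19.0 CPM in shBrf1 cells at day 2 and day 0, against 27.8 and 32.9 CPM in control cells. Fibroblast and preadipocyte markers were summed over 9 genes at 12670 to 35130 CPM, all 9 being detected in every library, whereas 4 epithelial markers summed to at most 0.56 CPM and 4 endothelial markers to at most 2.24 CPM. Epcam was at 0 in all libraries, 4 skeletal muscle markers summed to 2.58 to 8.39 CPM with Myod1 at 0 throughout, 4 macrophage and leukocyte markers to 1.39 to 25.2 CPM, and 6 bone and cartilage markers to 52.9 to 109.1 CPM with Acan at 0 throughout.

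Levels of adipocyte markers differed between these libraries, as did those of the ligands. The 10 adipocyte markers summed to 421.8 CPM in shMaf1, 2160 CPM in shBrf1, 1741 CPM in ML-60218 and 678.8 CPM in control cells at day 2. At day 0 the sums were 211.9, 661.5, 479.6 and 393.8 CPM in the same order of conditions. Most of each day 0 sum came from 1 marker, at 181.1, 605.9, 435.4 and 351.8 CPM. Of the 10 markers, 7, 5, 6 and 6 were under 1 CPM in these libraries, so the day 0 sums say little about the other markers. At day 2 the highest marker was at 307.2, 769.2, 777.5 and 390.2 CPM in the same order of conditions. That was most of the day 2 sum in shMaf1 and in control cells. Fabp4, which binds fatty acids in fat cells, was at 8.02 CPM in shMaf1, 769.2 CPM in shBrf1, 546.0 CPM in ML-60218 and 81.1 CPM in control cells at day 2. Pparg and Cebpa differed less between conditions. In the same order at day 2, Pparg was at 61.0, 229.2, 112.0 and 89.4 CPM. Cebpa was at 27.2, 133.4, 117.3 and 60.6 CPM. Fewer cells of a type and less RNA per cell cannot be told apart in these bulk libraries, and the part that the share of differentiated cells has in the ligand values was not tested.

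Among the members, 4 had a mean of at least 1 CPM over the 8 libraries, namely Wnt5a, Wnt4, Wnt6 and Wnt9a, and Wnt10b reached 1 CPM in some libraries. CPM is a count scaled to library size, here after TMM adjustment. Wnt5a (Entrez 22418) lies on the plus strand of mm10 at chr14:28505473-28525515, and its longest annotated transcript has 7010 bases in 5 exons. Wnt4 (Entrez 22417) lies on the plus strand at chr4:137277635-137299501, with 4194 bases in 5 exons. Wnt6 (Entrez 22420) lies on the plus strand at chr1:74771892-74785319, with 2071 bases in 4 exons. Wnt9a lies on the plus strand at chr11:59306930-59333552, with 3320 bases in 4 exons. The longest transcript was the length used wherever levels of different genes were compared.

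The ligand with the highest length-scaled level differed between libraries, as the stacked plot of length-scaled levels shows. At day 2 in shMaf1 cells Wnt6 led, with 18.8 CPM per kilobase, ahead of Wnt5a with 11.2 and Wnt4 with 2.54 CPM per kilobase. Before length scaling Wnt5a was the higher there, at 78.8 CPM against 38.9 CPM of Wnt6. This lead of Wnt6 thus depends on the transcript lengths used, and which transcripts were expressed was not determined. At day 2 in the other 3 conditions Wnt4 led, with 7.04 CPM per kilobase in shBrf1, 12.99 in ML-60218 and 9.19 in control cells. In those 3 libraries Wnt5a was at 2.03, 2.51 and 4.52 CPM per kilobase, and Wnt6 at 0.41, 1.03 and 3.13 CPM per kilobase. At day 0 Wnt5a led in each condition, with 9.82 CPM per kilobase in shMaf1, 7.46 in shBrf1, 8.94 in ML-60218 and 9.31 in control cells. In shMaf1 cells at day 0, Wnt6 stood close behind Wnt5a at 9.29 CPM per kilobase, against 3.29 CPM per kilobase of Wnt6 in control cells. Per length, Wnt9a did not pass 0.96 CPM per kilobase and Wnt10b did not pass 0.47 CPM per kilobase in any library.

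**Figure D1:**
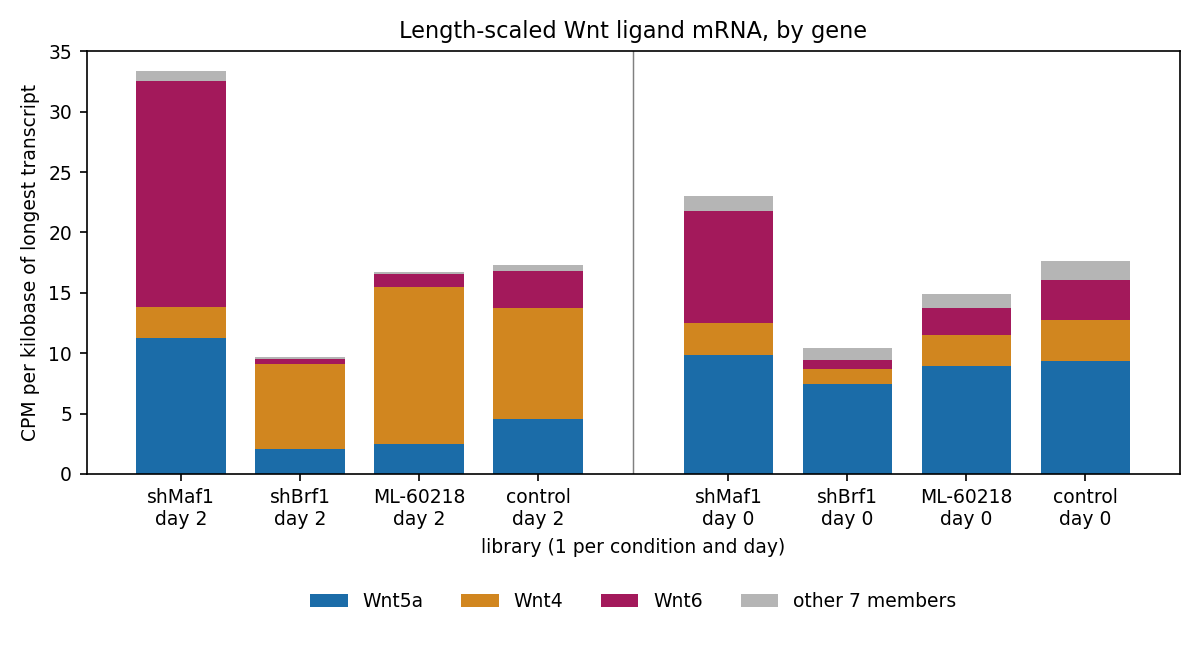
Stacked bars of CPM per kilobase of the longest transcript for Wnt5a, Wnt4, Wnt6 and the other 7 members together, in the 8 libraries, with day 2 on the left and day 0 on the right. Wnt6 forms the tallest segment in shMaf1 at day 2 (18.8), Wnt4 in the other 3 libraries of day 2, and Wnt5a in all 4 libraries of day 0.

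The 250 bases before the annotated start of Wnt6, Wnt4 and Wnt9a are printed next, because these ligands moved in different ways and RefSeq promoter entries (build GRCm38.p6) were at hand for them. There was such an entry for 8 of the 10 members, Wnt5a and Wnt10a being the other two. Capitals mark matches on either strand to GGGCGG, a core bound by SP and KLF factors, and to CACGTG, an E-box, and overlapping matches were counted separately.
Wnt6 promoter, plus strand, chr1:74771642-74771891: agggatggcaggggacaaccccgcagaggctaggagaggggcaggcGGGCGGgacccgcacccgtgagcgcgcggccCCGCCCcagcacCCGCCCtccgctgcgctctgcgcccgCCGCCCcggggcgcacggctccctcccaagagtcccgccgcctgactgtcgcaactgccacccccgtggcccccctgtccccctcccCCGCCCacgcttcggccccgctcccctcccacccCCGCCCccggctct
Wnt4 promoter, plus strand, chr4:137277385-137277634: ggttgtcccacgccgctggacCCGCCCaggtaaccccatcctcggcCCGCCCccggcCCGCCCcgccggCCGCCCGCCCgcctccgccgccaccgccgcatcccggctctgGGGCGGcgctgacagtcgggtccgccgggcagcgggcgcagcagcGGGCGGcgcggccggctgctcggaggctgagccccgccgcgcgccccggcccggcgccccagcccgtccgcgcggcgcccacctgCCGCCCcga
Wnt9a promoter, plus strand, chr11:59306680-59306929: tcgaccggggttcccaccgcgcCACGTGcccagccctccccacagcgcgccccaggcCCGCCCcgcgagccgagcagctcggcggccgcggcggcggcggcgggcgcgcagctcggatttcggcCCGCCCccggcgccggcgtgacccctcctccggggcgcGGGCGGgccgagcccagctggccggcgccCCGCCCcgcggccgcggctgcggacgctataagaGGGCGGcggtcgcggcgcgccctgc

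All 3 windows were rich in G and C, at 79.6% for Wnt6, 85.2% for Wnt4 and 84.4% for Wnt9a, against a median of 52.4% over 32851 promoter windows of the same length. GGGCGG matched 6 times in the Wnt6 window, 8 times in the Wnt4 window and 5 times in the Wnt9a window, and 32.7% of all windows held at least 1 match. CACGTG matched 1 time, in the Wnt9a window, and 6.02% of all windows held it. None of these 3 windows held the TCF and LEF core as CTTTGA or CTTTGT (held by 13.8% and 16.5% of all windows). They also lacked the C/EBP pattern TTGCNNAA (9.56%), TATAAA (12.4%) and the cAMP response element TGACGTCA (1.55%). The share of all windows was not matched for G and C content. G and C richness with GGGCGG matches was not particular to these 3 ligands, with 80.8% and 3 matches for Wnt2b. The Wnt10b window had 66.8% and 0 matches. Any part of these matches in the levels was not tested.

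Among the members that reached 1 CPM, Wnt6 had the widest range of levels within a day. Its counts were 1145 in shMaf1, 22 in shBrf1, 56 in ML-60218 and 192 in control cells at day 2, which equal 38.9, 0.85, 2.14 and 6.47 CPM. At day 0 the counts were 618, 51, 159 and 236 in the same order of conditions, which equal 19.2, 1.53, 4.76 and 6.81 CPM. The shMaf1 libraries were the highest and the shBrf1 libraries the lowest of their day, and the level in control cells was nearly the same on both days. In the order of the 8 levels, the counting interval of the ratio between neighbours included 1 only between control at day 0 and day 2, and between ML-60218 at day 2 and shBrf1 at day 0.

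A gene is called higher or lower here by a size rule, which asks for a log2 ratio of at least 1 in size, computed from CPM plus 0.5, with 1 CPM or more in the higher library. Folds are given with a 95% interval from the counts, which leaves out any variation between cultures and covers counting error only. Wnt6 was 6.01-fold higher (5.15 to 7.04) in shMaf1 than in control cells at day 2, 7.64-fold lower (4.90 to 12.5) in shBrf1 and 3.03-fold lower (2.24 to 4.16) with ML-60218. At day 0 it was 2.83-fold higher (2.43 to 3.30) in shMaf1 and 4.44-fold lower (3.27 to 6.13) in shBrf1. With ML-60218 at day 0 the fold was 1.43-fold lower (1.17 to 1.76), short of the size rule. All 5 values past the size rule stayed past it with each alternative scaling, pseudocount and correction tried.

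Set directly against each other, without the control library, the knockdowns of the repressor and of the initiation factor subunit differed more in Wnt6 than in the other members that reached 1 CPM. It was 45.9-fold higher (30.2 to 73.5) in shMaf1 than in shBrf1 cells at day 2 and 12.5-fold higher (9.42 to 17.0) at day 0. Because shBrf1 at day 2 held only 22 counts, the upper end of the first interval is loosely set.

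**Figure D2:**
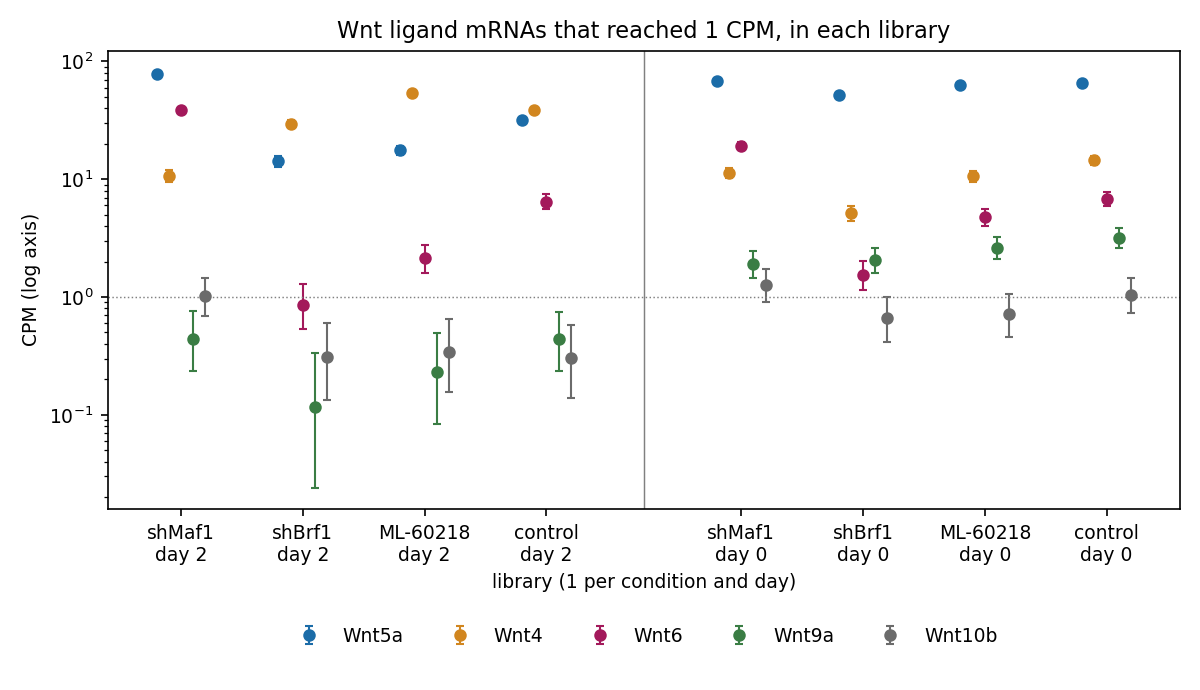
CPM on a log axis of the 5 members that reached 1 CPM in some library, for the 4 conditions at day 2 (left) and day 0 (right), with bars for 95% counting intervals and a dotted line at 1 CPM. Wnt6 runs between 0.85 CPM in shBrf1 and 38.9 CPM in shMaf1 at day 2, and Wnt4 and Wnt5a change places at day 2 in all conditions but shMaf1.

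Wnt5a, a ligand mostly studied for Ror-dependent signalling without β-catenin, had the highest count of the members in 5 of 8 libraries. Its counts were 2320 in shMaf1, 369 in shBrf1, 462 in ML-60218 and 939 in control cells at day 2, which equal 78.8, 14.2, 17.6 and 31.7 CPM. At day 0 the counts were 2211, 1737, 2095 and 2262 in the same order, which equal 68.8, 52.3, 62.7 and 65.3 CPM. The 4 conditions thus lay close together at day 0, and at day 2 shMaf1 stood above and shBrf1 and ML-60218 below control. Neighbours in the order of the 8 levels had ratio intervals that excluded 1, apart from shMaf1, control and ML-60218 at day 0. Wnt5a was 2.49-fold higher (2.31 to 2.69) in shMaf1 than in control cells at day 2 and 2.23-fold lower (1.97 to 2.52) in shBrf1. With ML-60218 at day 2 it was 1.80-fold lower (1.61 to 2.01), short of the size rule, and with ERCC spike-in scaling the log2 ratio was -1.41, past it.

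The call of lower Wnt5a in shBrf1 at day 2 was lost when a trend of the ratios on transcript length was removed, with a log2 ratio of -0.82 in place of -1.13. Wnt5a has a long transcript, the shBrf1 library had the 3′ bias score of 0.36 against 0.15 in control at day 2, and the part of that bias in the value was not tested. At day 0 no comparison of Wnt5a with control passed the size rule, with log2 ratios of 0.08 in shMaf1, -0.32 in shBrf1 and -0.06 with ML-60218. The value in shMaf1 at day 0 changed sign to -0.10 with spike-in scaling.

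Wnt4, a ligand known from development of the kidney and the female reproductive tract, was higher at day 2 than at day 0 in 3 of the 4 conditions. Its counts were 314 in shMaf1, 766 in shBrf1, 1428 in ML-60218 and 1143 in control cells at day 2, which equal 10.7, 29.5, 54.5 and 38.5 CPM. At day 0 the counts were 364, 171, 354 and 505 in the same order, which equal 11.3, 5.14, 10.6 and 14.6 CPM. The shMaf1 library was the lowest of day 2 and the shBrf1 library the lowest of day 0. Levels in shMaf1 on both days and in ML-60218 at day 0 were neighbours whose ratio intervals included 1. Compared with control at day 2, shMaf1 cells had 3.61-fold lower Wnt4 (3.19 to 4.11), and it was 1.29-fold lower (1.12 to 1.48) at day 0, short of the size rule. In shBrf1 it was 1.31-fold lower (1.19 to 1.43) at day 2, short of the rule, and 2.83-fold lower (2.38 to 3.39) at day 0.

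With ML-60218, Wnt4 had log2 ratios to control of 0.49 at day 2, which became -0.11 with spike-in scaling, and -0.44 at day 0. Between shMaf1 and shBrf1 the direction differed by day. Relative to shBrf1 cells, shMaf1 cells had 2.77-fold lower Wnt4 (2.42 to 3.17) at day 2 and 2.20-fold higher (1.83 to 2.66) at day 0. The call at day 2 was lost with spike-in scaling, at a log2 ratio of -0.60.

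Wnt9a, a ligand known from joint and limb development, was near 2 to 3 CPM at day 0 and below 1 CPM at day 2. Its counts were 13 in shMaf1, 3 in shBrf1, 6 in ML-60218 and 13 in control cells at day 2, against 61, 68, 87 and 110 in the same conditions at day 0. In CPM this was 0.44, 0.12, 0.23 and 0.44 at day 2, against 1.90, 2.05, 2.60 and 3.17 at day 0. All libraries of day 2 lay below all libraries of day 0. No comparison of Wnt9a with control passed the size rule on either day, and the widest was 1.67-fold lower (1.21 to 2.32) in shMaf1 at day 0 among those with the higher value at 1 CPM or more.

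Wnt10b, the ligand best known for holding preadipocytes undifferentiated, was scarce. It had 30 counts in shMaf1, 8 in shBrf1, 9 in ML-60218 and 9 in control cells at day 2, against 41, 22, 24 and 36 at day 0. In CPM this was 1.02, 0.31, 0.34 and 0.30 at day 2, against 1.28, 0.66, 0.72 and 1.04 at day 0. The shMaf1 library was the highest of each day, and at day 2 the other 3 libraries lay close together. At day 2 Wnt10b was 3.36-fold higher (1.55 to 8.04) in shMaf1 than in control cells. Its log2 ratio of 0.92 with the pseudocount of 0.5 fell short of the size rule, and became 1.47 with a pseudocount of 0.1.

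The remaining 5 members did not reach 1 CPM in any library, and differences among them were mostly not detectable at this depth. Wnt10a, which lies 6700 bases downstream of Wnt6 on chromosome 1 and is also known to restrain adipogenesis, had 7 counts in shMaf1, 0 in shBrf1, 0 in ML-60218 and 3 in control cells at day 2. At day 0 it had 8, 2, 3 and 3 counts in the same order, so its highest counts lay in the libraries in which Wnt6 was highest. Wnt11 had 13, 4, 1 and 12 counts at day 2, against 1, 0, 0 and 1 at day 0. The Wnt11 ratio of day 2 to day 0 was 14.02 (2.08 to 599.5) in control and 14.2 (2.13 to 603) in shMaf1 cells.

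Wnt2b had 5 counts in shMaf1, 1 in shBrf1, 1 in ML-60218 and 4 in control cells at day 2, against 5, 7, 6 and 20 at day 0. The control library of day 0 alone reached 20, and Wnt2b was 3.71-fold lower (1.35 to 12.6) in shMaf1, 2.74-fold lower (1.11 to 7.67) in shBrf1 and 3.22-fold lower (1.25 to 9.78) with ML-60218, all below 1 CPM and set against that single library. Wnt5b had at most 3 counts in a library, and it overlaps Fbxl14, so reads could be shared. Wnt2 had 1 count in all, in shMaf1 at day 0. A count of 0 allows up to 0.0866 to 0.116 CPM, depending on the library. The 9 Wnt ligand genes outside the list summed to at most 12 counts in a library, with Wnt7a the highest at 6 counts in shMaf1 at day 0.

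Counted over the 10 members, shMaf1 at day 2 had 2 members higher (Wnt5a and Wnt6), beside 4.57% of all genes reaching 1 CPM, and 1 lower (Wnt4), beside 3.48%. In shBrf1 at day 2, 2 members were lower (Wnt5a and Wnt6), beside 5.5% of all genes, and with ML-60218 1 was lower (Wnt6), beside 3.11%, and none higher, beside 1.77%. At day 0, shMaf1 had 1 member higher (Wnt6), beside 2.6% of all genes, and shBrf1 had 2 lower (Wnt4 and Wnt6), beside 0.497%. With ML-60218 at day 0 no member was called, beside 0.041% of all genes higher and 0.0738% lower. In shMaf1 against shBrf1, 2 members were higher and 1 lower at day 2, beside 12.4% and 9.28% of all genes, and 2 were higher at day 0, beside 3.3%. Members that reached 1 CPM in these comparisons numbered 3 to 5, so the shares over members are coarse.

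The median log2 ratio over the 4 members at a mean of at least 1 CPM was 0.65 in shMaf1, -0.87 in shBrf1 and -0.60 with ML-60218 at day 2. At day 0 it was -0.14 in shMaf1, -0.97 in shBrf1 and -0.34 with ML-60218. Over all 12137 genes at that mean, the 6 medians lay between -0.01 and 0.02.

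**Figure D3:**
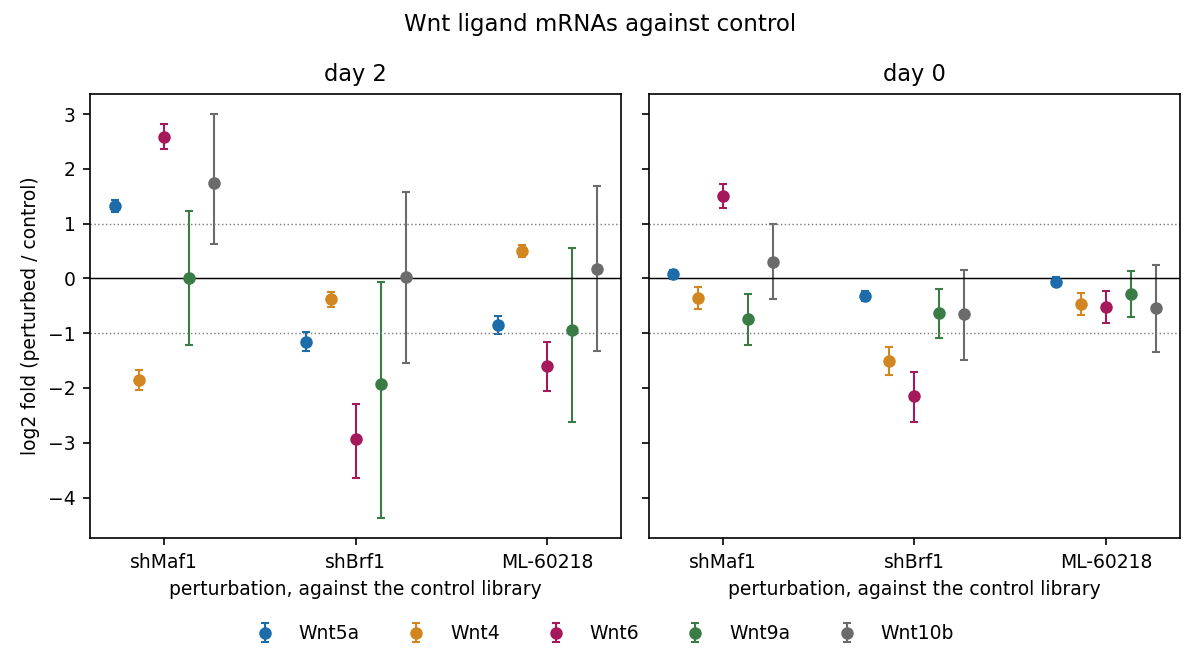
Log2 fold of each perturbation over the control library of the same day for the 5 members that reached 1 CPM, with 95% counting intervals and dotted lines at a log2 fold of 1 in size, without pseudocount. At day 2, Wnt6 and Wnt5a lie above 0 in shMaf1 and below 0 in shBrf1 and ML-60218, while Wnt4 lies below 0 in shMaf1.

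Day 2 was set against day 0 within each condition, and this ratio is called the response. All libraries of day 2 had the hormone cocktail, so its effect and that of time in culture cannot be told apart. Control cells had more Wnt4 and less Wnt5a and Wnt9a at day 2. Wnt4 was 2.65-fold higher (2.38 to 2.94) at day 2, while Wnt5a was 2.06-fold lower (1.91 to 2.23) and Wnt9a 7.24-fold lower (4.06 to 14.03). That is 1 member higher, beside 9.0% of all genes reaching 1 CPM, and 2 lower, beside 9.75%. The Wnt4 call was lost with spike-in scaling, at a log2 ratio of 0.72, and the Wnt5a call with the length trend removed, at -0.82. Spike-in scaling moved the median ratio of all genes in this comparison to -0.61. Wnt10b was 3.42-fold lower (1.62 to 8.08) at day 2 in control cells, with a log2 ratio of -0.94 that was short of the size rule.

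The same 3 calls were made in shBrf1 and in ML-60218 cells. In shBrf1 cells Wnt4 was 5.74-fold higher (4.86 to 6.81), Wnt5a 3.67-fold lower (3.28 to 4.12) and Wnt9a 17.7-fold lower (5.80 to 87.9) at day 2, beside 14.7% of all genes higher and 17.3% lower. In ML-60218 cells Wnt4 was 5.14-fold higher (4.58 to 5.80), Wnt5a 3.56-fold lower (3.21 to 3.94) and Wnt9a 11.4-fold lower (5.02 to 31.8), beside 12.3% of all genes higher and 14.5% lower. The fall of Wnt6 with ML-60218 was 2.23-fold (1.63 to 3.08), with a log2 ratio of -0.996 that was just short of the size rule. It passed with library totals, spike-in scaling, the smaller pseudocount, the length trend removed, or the shBrf1 library of day 2 left out of the scaling.

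In shMaf1 cells only Wnt9a was called, 4.30-fold lower (2.34 to 8.53) at day 2, beside 5.57% of all genes lower and 4.95% higher. Wnt4 had nearly equal levels on both days in shMaf1 cells, at 1.06-fold lower (0.91 to 1.24) at day 2. Wnt5a had a log2 ratio of 0.19 there, which became -0.14 with spike-in scaling. Wnt6 was 2.02-fold higher (1.83 to 2.23) at day 2 in shMaf1 cells, with a log2 ratio of 0.997 after the pseudocount that was just short of the size rule.

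**Figure D4:**
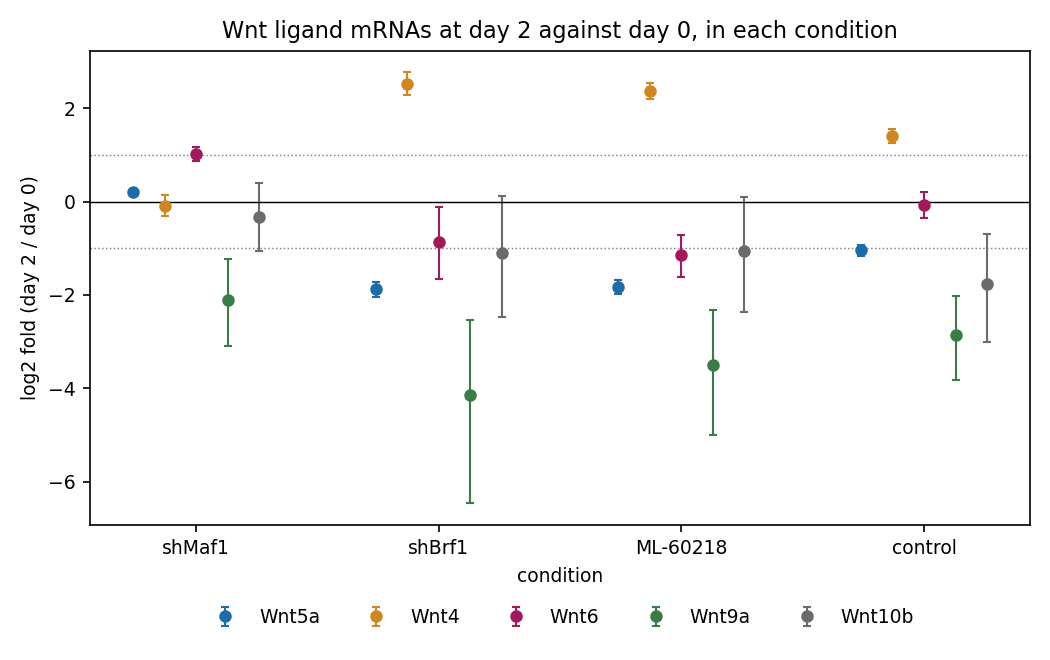
Log2 fold of day 2 over day 0 for the 5 members that reached 1 CPM, in each condition, with 95% counting intervals and dotted lines at a log2 fold of 1 in size, without pseudocount. Wnt4 lies above 1 in shBrf1, ML-60218 and control cells and near 0 in shMaf1, and Wnt9a lies below -1 in all 4 conditions.

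The difference between these responses was measured as the log2 ratio in the perturbed cells minus that in control cells. For shMaf1 it was -1.49 (-1.76 to -1.23) for Wnt4, 1.24 (1.10 to 1.38) for Wnt5a and 1.09 (0.78 to 1.40) for Wnt6, without pseudocount. These were the 2 members past the size rule upwards, beside 3.46% of all genes, and the 1 downwards, beside 2.45%. For shBrf1 it was 1.12 (0.83 to 1.40) for Wnt4, 1 member upwards beside 2.55% of all genes, with none downwards beside 4.91%, and the call was lost with library totals and with spike-in scaling, which gave 0.52. For ML-60218 no member passed, beside 1.84% of all genes upwards and 2.57% downwards, and the values nearest to the rule were 0.96 (0.73 to 1.19) for Wnt4 and -1.08 (-1.60 to -0.56) for Wnt6, the second at -0.93 with the pseudocount. These differences carry the control libraries of both days and were not tested.

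The other genes of the pathway are described by role, with lists chosen for their textbook place in Wnt signalling. Over the 12137 genes at a mean of at least 1 CPM, the size rule called 4.14% higher and 3.31% lower in shMaf1, 2.54% and 5.31% in shBrf1, and 1.47% and 2.96% with ML-60218 at day 2. At day 0 it called 2.3% higher and 0.956% lower in shMaf1, 0.371% and 0.42% in shBrf1, and 0.0412% and 0.0742% with ML-60218. Of the machinery that makes and releases ligands, Porcn, the enzyme that attaches the lipid to Wnt proteins, was at 17.2 CPM in shMaf1, 19.9 CPM in shBrf1, 26.5 CPM in ML-60218 and 46.0 CPM in control cells at day 2. It was 2.68-fold lower (2.41 to 2.97) in shMaf1 and 2.32-fold lower (2.09 to 2.57) in shBrf1 than in control cells at day 2. Wls, the carrier that takes Wnt proteins to the cell surface, ranged from 305.2 to 465.1 CPM and passed the size rule in none of the comparisons with control.

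Of 16 receptor genes, 13 had a mean of at least 1 CPM, and at day 2 1 of them was higher in shMaf1, beside 4.14% of the 12137 genes at that mean, and 2 were lower in shBrf1, beside 5.31%. Ptk7, a pseudokinase co-receptor linked to planar cell polarity, was both the higher one, by 2.59-fold (2.49 to 2.69), and one of the lower ones, by 2.81-fold (2.62 to 3.00). Its levels at day 2 were 312.1 CPM in shMaf1, 42.9 CPM in shBrf1, 79.3 CPM in ML-60218 and 120.5 CPM in control cells. That order of conditions was also the order for Wnt5a and Wnt6. Ror1, a receptor of Wnt5a, was 2.77-fold lower (2.06 to 3.77) in shBrf1, at 2.31 against 6.41 CPM. In shMaf1 at day 2, Ror1 was 1.72-fold higher (1.43 to 2.07), whereas Ror2 was 2.05-fold lower (1.56 to 2.71), at 2.72 against 5.56 CPM. Ror2 was also 2.22-fold lower (1.54 to 3.25) in shMaf1 at day 0. These values in shMaf1 were short of the size rule. Against control at day 0, no receptor was called.

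Of 15 antagonist genes, 4 had a mean of at least 1 CPM, and at day 2 2 of them were higher in shMaf1, 2 were lower in shBrf1, beside the same shares of all genes, and 1 was lower with ML-60218, beside 2.96%. Apcdd1, a membrane inhibitor of Wnt signalling that is itself a β-catenin target, was at 83.3 CPM in shMaf1, 3.97 CPM in shBrf1, 15.0 CPM in ML-60218 and 24.1 CPM in control cells at day 2. At day 0 it was at 38.3, 10.3, 29.4 and 33.4 CPM in the same order. Its order of conditions on each day was that of Wnt6, and also that of Wnt5a and Ptk7, so it is not particular to Wnt6. It was 3.46-fold higher (3.18 to 3.76) in shMaf1 and 6.07-fold lower (4.93 to 7.54) in shBrf1 at day 2, and 3.23-fold lower (2.86 to 3.65) in shBrf1 at day 0.

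Sfrp2, a secreted decoy that binds Wnt proteins, was 2.16-fold lower (1.82 to 2.57) in shBrf1 and 4.70-fold lower (3.73 to 5.99) with ML-60218 at day 2, at 7.25 and 3.32 against 15.6 CPM. Dkk3 and Sostdc1, the first a divergent Dickkopf family member and the second an Lrp-binding antagonist, were higher in shMaf1 at day 2, at 3.02 against 0.54 CPM and 1.36 against 0.13 CPM. Sostdc1 had a mean of 0.237 CPM and is not among the 4 antagonists counted. Rspo2, an R-spondin that strengthens Wnt signalling by sparing Frizzled receptors from removal, was 4.52-fold higher (3.37 to 6.15) in shMaf1 at day 2, at 8.53 against 1.89 CPM. It was the 1 called of 4 genes among R-spondins and their partners with a mean of at least 1 CPM, beside 4.14% of all genes higher. Neither shBrf1 nor ML-60218 had a call against control in that list.

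Of 18 cytoplasmic and nuclear components, 17 had a mean of at least 1 CPM, and none was called in shMaf1 or with ML-60218 against control on either day. In shBrf1 at day 2, 3 were lower, beside 5.31% of all genes at that mean. These were Dvl3, a Dishevelled adaptor, by 2.64-fold (2.32 to 3.01), Pygo1 by 2.89-fold (1.79 to 4.83) and Bcl9l by 2.19-fold (2.08 to 2.31). Pygo1 and Bcl9l belong to the complex that β-catenin forms on target genes, and both calls were lost with the length trend removed, at log2 ratios of -0.80 and -0.83.

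Of 17 genes listed as targets of the β-catenin branch, 8 had a mean of at least 1 CPM, and they did not move in 1 direction. Axin2, the feedback inhibitor most used as a readout of β-catenin signalling, lay below that mean and was detected mainly in shMaf1. It was at 2.21 CPM in shMaf1, 0 counts in shBrf1, 0 counts in ML-60218 and 0.13 CPM in control cells at day 2, and at 2.58, 0.21, 0.21 and 0.17 CPM at day 0. Axin2 was 16.4-fold higher (6.10 to 61.9) in shMaf1 than in control cells at day 2 and 14.9-fold higher (6.57 to 41.8) at day 0. Notum, another listed target below that mean, went the other way in shMaf1 at day 2. It was 4.17-fold lower (1.53 to 14.15) than in control cells, at 0.17 against 0.71 CPM, short of the size rule. The shMaf1 libraries were the 2 in which Wnt6 was highest, and the part of Wnt6 in the Axin2 level was not tested.

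Wisp2, a secreted matricellular protein known as a Wnt-responsive gene of preadipocytes, went the other way. It was at 14.3 CPM in shMaf1, 47.3 CPM in shBrf1, 62.6 CPM in ML-60218 and 122.5 CPM in control cells at day 2, and at 10.2, 29.3, 25.2 and 24.5 CPM at day 0. In shMaf1 it was 8.55-fold lower (7.73 to 9.48) at day 2 and 2.403-fold lower (2.11 to 2.74) at day 0, and 2.59-fold lower (2.43 to 2.77) in shBrf1 at day 2. Wisp1 was 3.06-fold lower (2.73 to 3.43) in shBrf1 and 2.03-fold lower (1.84 to 2.24) with ML-60218 at day 2, the second call being lost with DESeq2 size factors and with the length trend removed. Fosl1, a subunit of the AP-1 factor, was 3.34-fold higher (3.14 to 3.56) with ML-60218 at day 2, at 155.4 against 46.5 CPM. Among the 8 targets, shMaf1 thus had 1 lower at day 2, beside 3.31% of all genes, and 1 at day 0, beside 0.956%. At day 2, shBrf1 had 2 lower, beside 5.31%. With ML-60218 at day 2, 1 was higher, beside 1.47%, and 1 lower, beside 2.96%.

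**Figure D5:**
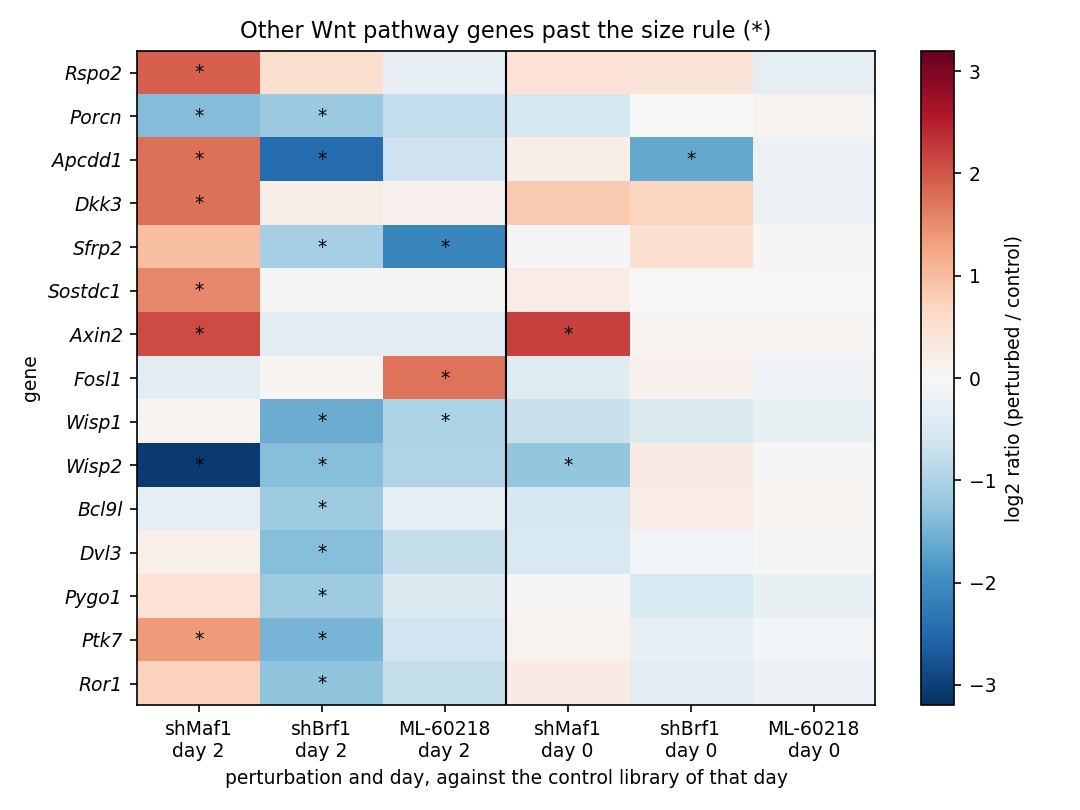
Log2 ratio of each perturbation to the control library of the same day, in colour, for the 15 other Wnt pathway genes that passed the size rule in at least 1 comparison, with an asterisk at each value past it. Axin2 is high in both shMaf1 columns, and Apcdd1 and Ptk7 are high in shMaf1 and low in shBrf1 at day 2.

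Genes within 100 kilobases of the members were read for calls against control. Besides Wnt6 itself, next to Wnt10a, those called with a mean of at least 1 CPM were Erc2, Rnd1 and Adipor2. Of the 12137 genes at that mean, 4.14% were higher in shMaf1 and 5.31% lower in shBrf1 at day 2. With ML-60218 at day 2, 1.47% were higher, and in shBrf1 at day 0, 0.42% were lower. The share of genes called in any comparison was not computed, so the number of called neighbours is not read as a result. The nearest gene to Wnt6 with a mean of at least 1 CPM was Ttll4, 73919 bases away, with log2 ratios at day 2 of 0.54 in shMaf1 and -0.66 in shBrf1 and no call. Cdc42, 20195 bases from Wnt4, was not called in any comparison with control. Erc2, 26936 bases from Wnt5a, had 84 counts in shMaf1, 4 in shBrf1, 7 in ML-60218 and 17 in control cells at day 2, against 223, 57, 161 and 172 at day 0. Its log2 ratio was 1.64 in shMaf1 at day 2 and -1.30 in shBrf1 at day 0, both past the size rule. Rnd1, 94291 bases from Wnt10b, had 113 counts in shMaf1, 66 in shBrf1, 94 in ML-60218 and 193 in control cells at day 2, and its log2 ratio of -1.20 in shBrf1 was past the rule. Adipor2, an adiponectin receptor gene 15048 bases from Wnt5b, had 4381 counts in shMaf1, 14714 in shBrf1, 15074 in ML-60218 and 8471 in control cells at day 2. Its log2 ratio was 1.01 with ML-60218, just past the rule, and 0.99 in shBrf1, just short of it.

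Across the 8 libraries, log2 CPM of Wnt5a and Wnt6 correlated at 0.73, of Wnt4 and Wnt5a at -0.79, and of Wnt4 and Wnt6 at -0.28 (Pearson's r, n = 8). These libraries share days and conditions, so the values only describe how the members ran together. Among 9884 named genes at a mean of at least 5 CPM, the 3 most like Wnt6 were Apex2, Zfp568 and Efna5, with r from 0.979 to 0.981. Of these, Efna5, an ephrin ligand, had a wide range, with 80.7 CPM in shMaf1 and 22.1 CPM in shBrf1 against 39.2 CPM in control cells at day 2. The most like Wnt5a were Ankrd26, Zfhx4 and Limd2 (0.993 to 0.995), and the most like Wnt9a were Srpk2, Rpgrip1l and Plekhn1 (0.993 to 0.998). The most like Wnt4 were Il13ra1, Fbxo8 and Peo1 (0.965 to 0.977), with Il13ra1, a cytokine receptor chain, at 32.9 CPM in shMaf1, 78.8 CPM in shBrf1, 144.7 CPM in ML-60218 and 112.0 CPM in control cells at day 2.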

How the data were processed

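Poly(A) libraries were made with a stranded kit, per the labels' protocols, and reads were aligned with STAR 2.4 to mm10, per the submitters' processing notes. The counting program and its strand setting are not given in the sources used here. The authors deposited 6 comparison tables with expected counts, as whole numbers and not normalised, for 1 perturbed library and the control library of its day. The authors' deposited log2 fold change was used only as an alternative. The p-values of those tables were left aside, since 1 library per group allows no such test. Per the file headers, the quality tables deposited with them hold the percent of reads on ribosomal RNA, a score for 3′ bias and ERCC read counts. Between 44.35% and 49.98% of reads were ambiguous, so values of overlapping genes are less certain.

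Counts of the 8 libraries, of 29035505 to 31759559 each, were scaled together by TMM in edgeR 4.0.16 (R 4.3.3) and given as CPM. Ratios used a pseudocount of 0.5. Fold intervals are exact conditional binomial (Clopper-Pearson) 95% intervals, and the limit for a count of 0 is 3 counts. Without molecular identifiers these cover counting error only. No test across conditions was made, and the code was checked on simulated data.

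Lengths and strands came from GENCODE M21, whose positions overlapped those of all 19 Wnt genes in the tables. Scaling by DESeq2 1.42.0 size factors, by library totals and by ERCC reads was tried as alternatives, as were a pseudocount of 0.1, no floor and a floor of 5 CPM, and the authors' fold change. Leaving the shBrf1 library of day 2 out of the scaling and removing a lowess trend (fraction 0.3) of the ratio on transcript length were added after seeing the data. The members and lists were chosen with earlier results of these data known. Named genes were all members, the 3 pathway genes with the largest ratio past the size rule in each comparison with control, neighbours within 100 kilobases, and, for each member at a mean of at least 1 CPM, the 3 genes at a mean of at least 5 CPM most correlated with it. Porcn, Wls, Ror1, Ror2, Dvl3, Pygo1, Bcl9l, Dkk3, Sostdc1 and Notum fall outside this rule and were named after their values were seen. Tables and figures were made with pandas 2.3.3, matplotlib 3.10.9, statsmodels 0.14.6, scipy 1.17.1 and numpy 2.4.6 in Python 3.11.15.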

Additional observations from a re-analysis of the deposited data

Results flagged for a closer look

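Wnt4 differed between the knockdowns in opposite directions on the 2 days. The log2 ratio of shMaf1 to shBrf1 was -1.43 at day 2 (10.7 against 29.5 CPM) and 1.07 at day 0 (11.3 against 5.14 CPM). This change of direction between days was not tested, since each group holds 1 library. With ERCC spike-in scaling the value at day 2 was -0.60 and no longer passed the size rule. The level in shMaf1 was nearly the same on both days, and the level in shBrf1 was not.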

How the results depend on the processing

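No paired analysis was possible because each group compared held 1 library, so the replicate numbers gave fewer than 2 pairs. A fit of day with condition as a block could be made over the 8 libraries but was not run, and it would address a response common to the 4 conditions, which is not a comparison made here. Of 28 member values past the size rule, 23 stayed past it with each alternative scaling, the smaller pseudocount, the length trend removed and, where there was one, the authors' deposited fold change, and no called value changed sign. Of 24 pathway values past it, 21 stayed. The floor of 5 CPM is not part of these counts, and it removed the 4 called values of Wnt9a. Some pathway calls also had their higher value under 5 CPM and rest on the 1 CPM floor. These were Axin2 in shMaf1 (2.21 CPM at day 2 and 2.58 CPM at day 0), and at day 2 Dkk3 (3.02 CPM), Sostdc1 (1.36 CPM) and Pygo1 (2.56 CPM). Counts of members past the rule changed as follows. With ERCC scaling, shBrf1 and ML-60218 against control at day 2 had 3 and 2 lower, day 2 against day 0 had 0 higher in control and 3 lower in control, 3 in shBrf1 and 4 in ML-60218, and shMaf1 against shBrf1 at day 2 had 3 higher and 0 lower. With the same scaling, the difference of response had 0 higher and 1 lower for shBrf1 and 2 lower for ML-60218. Library totals gave 0 higher for the difference of response of shBrf1, and 3 lower for day 2 against day 0 in control and in ML-60218. A floor of 5 CPM gave, for day 2 against day 0, 1 lower in control, 0 in shMaf1, 1 in shBrf1 and 1 in ML-60218, since Wnt9a is below it. A pseudocount of 0.1 gave, for day 2 against day 0, 1 higher in shMaf1 and 3 lower in control and in ML-60218. It also gave 3 higher for shMaf1 at day 2 against control and against shBrf1, 3 higher for the difference of response of shMaf1 and 1 lower for that of ML-60218. The authors' deposited fold change gave 3 higher for shMaf1 against control at day 2. Removing the length trend gave 1 lower for shBrf1 against control at day 2, 3 higher for shMaf1 against shBrf1 at day 2 and 3 lower for day 2 against day 0 in ML-60218. Leaving the shBrf1 library of day 2 out of the scaling also gave 3 lower for the last. ERCC scaling moved the median log2 ratio of all genes to -0.65 in shBrf1 and -0.58 in ML-60218 against control at day 2, and to between -1.22 and -0.30 for day 2 against day 0. It supposes equal spike-in per unit of RNA, which the labels do not state. Other causes of these changes were not tested. Depth limits the 5 members below 1 CPM, and 1 library per group limits every value.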
